A study of Mus musculus with 8 samples.

Results

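The mitochondrially encoded RNAs are the transcripts of the small circular genome that mitochondria carry themselves. They were taken as every gene whose symbol begins with mt- in the deposited tables, and the messenger RNAs (mRNAs), ribosomal RNAs (rRNAs) and transfer RNAs (tRNAs) were kept apart. The table of hair follicle stem cells (HFSCs) held 16 such genes of 23861, namely 13 mRNAs, 2 rRNAs and 1 tRNA. The table of epidermal stem cells (EpdSCs) held 15 of 16231, the same 13 mRNAs and 2 rRNAs. The annotation counts 37 genes on this genome, and its other 21 tRNA genes were not analysed here. The symbol decided which genes were members, but the group itself was chosen by measured values, the rRNA shares of these libraries, which were already known. Its levels and fitted changes are therefore given as a description of these libraries.

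Both strands of the mitochondrial genome are copied into long precursor RNAs. The tRNAs lie between most of the other genes, and their excision releases the rRNAs and mRNAs. The rRNAs, the 12S RNA of mt-Rnr1 and the 16S RNA of mt-Rnr2, form the core of the mitochondrial ribosome. The mRNAs encode subunits of the respiratory chain: the mt-Nd genes of complex I (NADH dehydrogenase), mt-Cytb of complex III, the mt-Co genes of complex IV (cytochrome c oxidase) and mt-Atp6 and mt-Atp8 of complex V (ATP synthase). All other parts of these complexes, and the enzymes that copy, process and translate the mitochondrial genome, come from nuclear genes. Old insertions of mitochondrial DNA into the chromosomes have also left nuclear copies, some with almost the same sequence as the original.

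The study asked how loss of the homeobox transcription factor Msx2 alters stem cells of the mouse skin, and its bulk RNA-seq covered 8 libraries in 4 groups of 2. HFSCs were sorted from dorsal telogen skin as CD34+ CD49f+ Sca-1- cells and EpdSCs as CD34- CD49f+ Sca-1+ cells. By the account of the paper, the Msx2-KO mice carried a germline neo cassette upstream of exon 2 on both alleles. Such a change is present in every tissue and not only in the sorted cells. The name of the deposited counts calls the mutant cKO, short for conditional knockout, while the sample labels call it Msx2-KO. WT mice were C57BL/6J animals at the same stage of the hair cycle. By the labels the WT mice for HFSCs were aged 2 months, while all other groups, Msx2-KO mice for HFSCs and both genotypes for EpdSCs, were aged 6 months. In HFSCs age and genotype therefore cannot be told apart. The sample numbers in the column names also ran in separate series for the 2 genotypes of each cell type, so any handling that went with these series cannot be told apart from genotype. The Msx2-KO HFSC libraries and the WT EpdSC libraries stood in the same run of numbers, so that opposite directions in the 2 cell types also coincide with it. The labels do not say that libraries of a group came from separate mice, and the SDs and p-values below measure the spread between these libraries, which may be technical.

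HFSC libraries held 3132974 to 11016659 estimated counts, and EpdSC libraries corresponded to 15212837 to 21092329 counts. The HFSC libraries labelled Msx2-KO had 11749 and 14616 genes above 0, against 22867 and 20229 in WT. The targeted gene did not separate the labels: Msx2 had 53 and 7 counts in WT HFSCs against 40 and 18 in HFSCs labelled Msx2-KO, and normalized values of 58.5 and 85.4 against 150 and 22.2 in EpdSCs. A count per gene does not show which exons the reads came from, and Msx2-KO below means the libraries labelled so. The bulge keratin Krt15 took 0.814% and 0.439% of WT HFSC counts and 0.185% and 0.189% of Msx2-KO counts. Its EpdSC shares were 0.485% and 0.656% in WT against 0.932% and 1.25% in Msx2-KO. Both Msx2-KO EpdSC libraries thus exceeded every HFSC library. In EpdSCs the basal keratin Krt14 took 0.436% and 0.573% in WT, compared with 1.59% and 1.94% in Msx2-KO. The whole list of basal epidermis markers (7 of 7) did not separate the EpdSC groups. It summed to 2.73% and 2.79% in WT against 2.76% and 3.70% in Msx2-KO. Both integrin Itga6 (CD49f) and, in EpdSCs, Ly6a (Sca-1) were above 0 in every library of their sort, as was Cd34 in HFSCs. Cd34 took 0.0850% and 0.0431% of WT HFSC counts, compared with 0.0148% and 0.00982% of Msx2-KO counts.

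Several mitochondrial genes have a twin on chromosome 1, and the sequences below are shown because they bear on which gene a read was assigned to. The subunit gene mt-Nd4l occupies chrM:9877-10173 on the plus strand (GRCm38), and its nuclear copy Gm10222 occupies chr1:24612407-24612700 on the minus strand. The copy matches mt-Nd4l at 294 of its 297 bases, so that only the last 3 bases, in capitals, have no partner.
mt-Nd4l: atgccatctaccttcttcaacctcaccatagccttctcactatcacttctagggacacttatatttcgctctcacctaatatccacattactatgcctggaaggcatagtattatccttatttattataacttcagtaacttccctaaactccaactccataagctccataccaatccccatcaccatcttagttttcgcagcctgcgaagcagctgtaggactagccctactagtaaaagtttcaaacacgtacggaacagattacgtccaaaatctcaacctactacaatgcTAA

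The gene mt-Nd3 (chrM:9459-9806) and its copy Gm28438 (chr1:24612775-24613119) differ at a single base in 345, T3C, counted from 1 at the start of mt-Nd3. The first 33 bases of each are given with that base in capitals.
mt-Nd3: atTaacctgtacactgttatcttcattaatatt
Gm28438: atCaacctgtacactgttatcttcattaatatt

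Complete matches of the same kind joined mt-Atp6 to Gm10925 (678 bases), mt-Co2 to Gm28661 (681 bases) and mt-Co3 to Gm28437 (783 bases). A read from inside these stretches cannot be told apart from a read of the copy. For mt-Nd4, Gm28439 matched part of its 1378 bases, and mt-Co1 shared a stretch of 483 bases with Gm29216 at 99.8% identity. Among annotated transcripts, no copy of at least 99% identity was found for mt-Nd1, mt-Nd2, mt-Nd5, mt-Nd6, mt-Cytb and mt-Atp8. These 6 mRNAs are described first in each cell type. Chromosome sequence without an annotated transcript was not searched, and no close copy below means none among these transcripts. Some mitochondrial genes also overlap each other: mt-Atp8 and mt-Atp6 by 43 bases, mt-Nd4l and mt-Nd4 by 7, and mt-Nd5 and mt-Nd6, on opposite strands, by 14. The 43 shared bases of mt-Atp8 lie inside the match of mt-Atp6 to Gm10925. The kit marks strand, but the use of strand in the counting is not given in the sources used here.

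In HFSCs mitochondrial rRNA made up 8.94% and 36.3% of the estimated counts of WT libraries, against 49.4% and 53.2% of those of Msx2-KO libraries. The WT mean was 22.6% ± 19.3 and the Msx2-KO mean 51.3% ± 2.72 (SD, n = 2 each). The groups did not overlap, but the gap from the higher WT library to the lower Msx2-KO library was smaller than the gap between the WT libraries. The mRNA share followed the same order of libraries, with 1.57% and 4.57% in WT against 7.17% and 8.86% in Msx2-KO (means 3.07% ± 2.12 and 8.01% ± 1.19). Among counts outside the rRNA, mitochondrial mRNA made up 1.72% and 7.17% in WT, compared with 14.2% and 18.9% in Msx2-KO. Genotype cannot reach a p under 0.05 in an exact permutation test of 2 libraries against 2, whose smallest two-sided value is 0.333, and no such test was run on the shares.

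In EpdSCs the rRNA lay in the opposite order. It took 23.5% and 16.4% of the summed values in WT against 0.0730% and 6.18% in Msx2-KO, with means of 19.9% ± 5.02 and 3.13% ± 4.32 (SD, n = 2 each). Both Msx2-KO libraries were below both WT libraries, and they differed widely from each other. The mRNA share did not follow it: the values were 2.25% and 1.94% in WT, compared with 5.06% and 2.04% in Msx2-KO, and the groups overlapped. Outside the rRNA the mRNA share was 2.94% and 2.32% in WT against 5.06% and 2.17% in Msx2-KO. The EpdSC table was normalized and filtered apart from the HFSC table, so shares in the 2 cell types are set side by side and were not tested against each other. The exact binomial 95% intervals of all class shares were at most 0.107 percentage points wide, which covers counting error only.

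**Figure D1:**
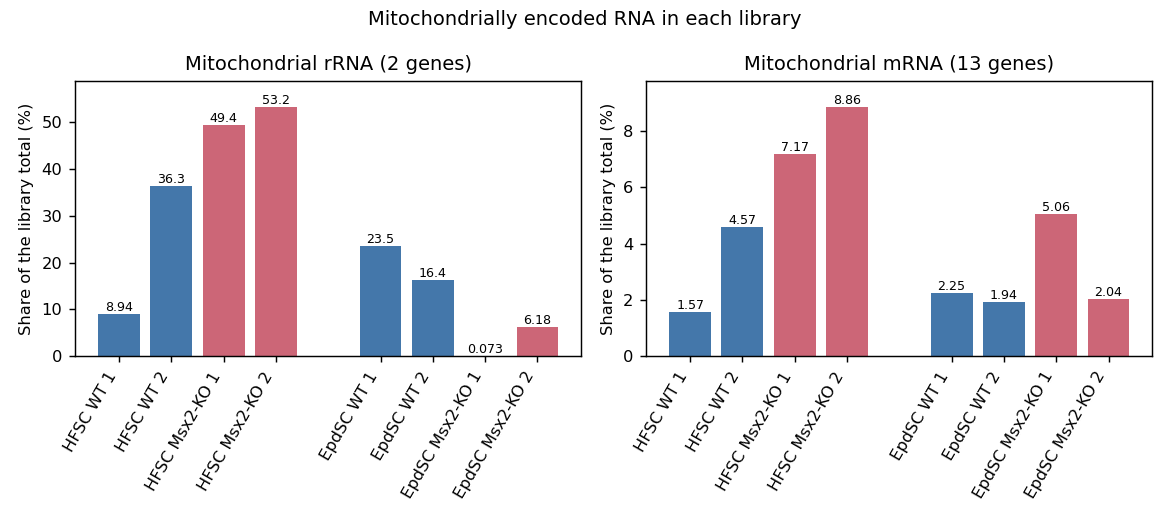
Share of the library total (%, linear axis from 0) taken by mitochondrial rRNA (left) and mitochondrial mRNA (right) in each of the 8 libraries, WT in blue and Msx2-KO in red; each bar is 1 library with its value above it. The rRNA bars run from 8.94% to 53.2% with Msx2-KO highest in HFSCs, and from 0.0730% to 23.5% with WT highest in EpdSCs, whereas the mRNA bars of the EpdSC groups overlap.

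Counted without the nuclear copies, the proportion of rRNA to mRNA overlapped between the groups in HFSCs and not in EpdSCs. There were 5.71 and 7.94 rRNA counts per mRNA count in WT HFSCs against 6.89 and 6.01 in Msx2-KO HFSCs. In EpdSCs the ratio was 10.4 and 8.44 in WT, 0.0144 in Msx2-KO replicate 1 and 3.04 in replicate 2. The copies held a larger part of the pairs in Msx2-KO HFSCs than in WT HFSCs, and a ratio with copies was not computed. Mitochondria per cell, RNA per mitochondrion and the recovery of RNA in the library were not measured in these bulk samples. Their part in the shares and in these ratios was not tested.

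The rRNA genes differed in how far apart the EpdSC groups lay. mt-Rnr1 took 9.32% and 6.52% of the WT EpdSC totals, against 0.00408% and 0.0205% for Msx2-KO, 0.00155 times the WT mean. mt-Rnr2 took 14.1% and 9.84% in WT, compared with 0.0690% and 6.16% in Msx2-KO. Msx2-KO replicate 2 thus kept much of its 16S signal and almost none of the 12S signal. Per length, mt-Rnr2 was 0.916 and 0.911 times mt-Rnr1 in WT EpdSCs, 10.2 times in Msx2-KO replicate 1 and 182 times in replicate 2. In HFSCs the same ratio was 1.07 and 1.57 in WT against 1.05 and 1.04 in Msx2-KO, with mt-Rnr1 at 3.21% and 10.1% against 18.0% and 19.6% and mt-Rnr2 at 5.72% and 26.2% against 31.4% and 33.6%. The 12S and 16S RNAs come from the same precursor, mt-Rnr1 first, with a tRNA gene between them.

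Several other abundant untranslated RNAs, though not all, were also low in the Msx2-KO EpdSC libraries. The 7SK RNA of Rn7sk, a regulator of transcription elongation, took 1.15% and 1.67% in WT, compared with 0.00155% and 0.0215% in Msx2-KO. Rpph1, the RNA of nuclear RNase P, had normalized values of 98669 and 98990 in WT, 0 in Msx2-KO replicate 1 and 1.35 in replicate 2. The nuclear RNA Malat1 took 1.37% and 1.32% in WT against 0.00972% and 0.0101% in Msx2-KO, and the signal recognition particle RNA Rn7s2 took 1.77% and 2.18% against 0.00970% and 0.0543%. The abundant RNA CT010467.1 did not follow them, at 1.21% and 0.799% in WT, 0.0217% in Msx2-KO replicate 1 and 1.39% in replicate 2, the highest of the 4 libraries. In HFSCs these RNAs did not share 1 direction. Rn7s2 (0.338% and 0.0977% against 0.680% and 0.962%) and Rpph1 (0.124% and 0.0254% against 0.154% and 0.323%) were higher in Msx2-KO. Malat1 was lower (4.04% and 4.57% against 1.11% and 1.41%), and the groups overlapped for Rn7sk and CT010467.1. The untranslated RNA Rmrp was higher in Msx2-KO HFSCs (0.0227% and 0.0384% against 0.0734% and 0.177%). It was lower in Msx2-KO EpdSCs (0.222% and 0.234% against 0.0259% and 0.0141%). The part of RNA type, RNA quality or library preparation in the rRNA shares was not tested.

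Several marker lists also separated the groups, not always in the direction of the mitochondrial shares. The 8 of 8 suprabasal epidermis markers in the HFSC table summed to 0.0299% and 0.0199% in WT against 0.0650% and 0.198% in Msx2-KO, with the cornified envelope gene Lor at 0 in 3 of the 4 libraries. The 9 of 9 markers of the sort and of HFSCs summed to 1.64% and 0.878% in WT, compared with 0.381% and 0.335% in Msx2-KO, none at 0. The 6 of 6 sebaceous gland markers summed to 0.0163% and 0.0107% in WT, compared with 0.107% and 0.0716% in Msx2-KO, with Cidea at 0 in both WT libraries and Elovl5 at 0 in Msx2-KO replicate 1. In EpdSCs 5 of 6 sebaceous gland markers summed to 0.0416% and 0.0506% in WT against 0.103% and 0.0793% in Msx2-KO, none at 0, and 8 of 9 markers of the sort and of HFSCs to 0.546% and 0.738% against 1.26% and 1.56%, with Lgr5 at 0 in WT replicate 1. The 8 of 8 suprabasal markers in EpdSCs summed to 1.69% and 1.35% in WT against 0.173% and 0.548% in Msx2-KO, with Flg at 0 in Msx2-KO replicate 2. In HFSCs the groups were also apart for basal epidermis markers (6 of 7; 0.650% and 0.390% against 0.310% and 0.364%) and, at no more than 0.0333% in any library, for melanocyte (4 of 5), fibroblast (4 of 7) and endothelial markers (5 of 5), all lower in Msx2-KO, and muscle markers (3 of 5), higher. In EpdSCs immune markers (7 of 8) were lower, at no more than 0.00546%. The groups overlapped for immune markers in HFSCs and for basal epidermis, melanocyte and endothelial markers in EpdSCs. The part of these markers in the mitochondrial shares was not tested.

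Among the 13 mRNAs of HFSCs, 8 had a larger share in both Msx2-KO libraries than in both WT libraries, 0 had a smaller share in both, and 5 overlapped. Of the 14422 HFSC genes tested, 5.98% lay above in this way and 49.8% below, and both rRNAs also lay above. All 6 mRNAs without a close copy were among the 8, with mt-Nd4 and mt-Co1 as the others.

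Of the complex I subunit genes, mt-Nd5 took 0.203% and 0.502% of the WT HFSC counts and 1.16% and 1.31% of the Msx2-KO counts. mt-Nd1 took 0.144% and 0.488% in WT, compared with 0.642% and 0.918% in Msx2-KO. mt-Nd2 took 0.0818% and 0.245% in WT against 0.381% and 0.580% in Msx2-KO. In each of these genes WT replicate 1 was the lowest of the 4 libraries, as for the whole class. mt-Nd6, the only mRNA gene on the opposite strand, took 0.0621% and 0.143% in WT, compared with 0.196% and 0.232% in Msx2-KO. mt-Nd4 took 0.154% and 0.460% against 0.723% and 1.03%. The ratio of the Msx2-KO mean to the WT mean was 2.09 for mt-Nd6 and 3.50 for mt-Nd5, its neighbour on the other strand.

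Of the other complexes, the complex III gene mt-Cytb took 0.228% and 0.462% of WT HFSC counts and 0.971% and 1.33% of Msx2-KO counts. The largest catalytic subunit gene of complex IV, mt-Co1, took 0.398% and 0.960% in WT against 2.34% and 2.60% in Msx2-KO, more than any other mRNA listed under a mitochondrial symbol in all 4 libraries; with the close copies added, mt-Atp6 exceeded mt-Co1 in 3 of them. The complex V gene mt-Atp8 took 0.0542% and 0.123% in WT, compared with 0.156% and 0.220% in Msx2-KO. For these 3 genes both Msx2-KO libraries again lay above both WT libraries.

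The 5 HFSC mRNAs whose groups overlapped were those with a nearly complete nuclear copy. mt-Co2 took 0.0551% and 0.195% in WT against 0.0892% and 0.0735% in Msx2-KO. mt-Co3 took 0.0416% and 0.128% in WT, compared with 0.0620% and 0.0448% in Msx2-KO. mt-Atp6 took 0.130% and 0.794% against 0.388% and 0.438%. For all 3, WT replicate 2 was the highest library, unlike any gene without a close copy. mt-Nd4l (0.0107% and 0.0390% against 0.0394% and 0.0351%) and mt-Nd3 (0.00351% and 0.0297% against 0.0232% and 0.0322%) lay closer to the other mRNAs.

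The division of counts between these genes and their copies differed between the HFSC groups. Gm28661 held 53.4% and 55.4% of the summed counts of itself and mt-Co2 in WT against 87.5% and 92.8% in Msx2-KO. Gm28437 held 51.6% and 51.6% of the pair with mt-Co3 in WT, compared with 84.7% and 91.2% in Msx2-KO. Gm10925 held 50.6% and 53.1% of the pair with mt-Atp6 against 85.4% and 85.6%, and Gm10222 held 54.7% and 52.4% of the pair with mt-Nd4l against 81.1% and 86.2%. In WT these 4 pairs, with identical sequence over the copy, were thus divided almost evenly, and in Msx2-KO most of the counts stood under the nuclear symbol. Gm28438, which differs from mt-Nd3 by T3C, lay the other way, with 68.5% and 26.0% of its pair in WT against 15.5% and 24.1% in Msx2-KO.

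With each close copy added to its gene, 12 of the 13 HFSC mRNAs had a larger share in both Msx2-KO libraries and 1, mt-Nd3, overlapped. mt-Co2 with Gm28661 then took 0.118% and 0.438% in WT, compared with 0.716% and 1.03% in Msx2-KO. mt-Co3 with Gm28437 took 0.0860% and 0.265% against 0.405% and 0.508%, and mt-Atp6 with Gm10925 took 0.264% and 1.69% against 2.66% and 3.03%. The summed mRNA share with copies was 1.88% and 6.02% in WT against 10.7% and 13.3% in Msx2-KO. The groups of these 3 genes separated once the copies were counted with them.

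In EpdSCs the mRNAs did not move as a class. Of the 13 genes, 3 had a larger share in both Msx2-KO libraries (mt-Atp6, mt-Co3 and mt-Nd4), 5 a smaller share (mt-Co2, mt-Atp8, mt-Nd4l, mt-Nd5 and mt-Nd6), and 5 overlapped. Of all 16231 EpdSC genes, 24.7% lay above and 46.2% below in this way.

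mt-Nd5 took 0.138% and 0.261% of the WT EpdSC totals, against 0.0212% and 0.0209% for Msx2-KO. mt-Nd6 took 0.0243% and 0.0386% in WT, compared with 0.00377% and 0.00251% in Msx2-KO. The Msx2-KO mean was 0.105 times the WT mean for mt-Nd5 and 0.0999 times for mt-Nd6, although these neighbours are read from opposite strands and overlap by only 14 bases. mt-Atp8 took 0.0587% and 0.0313% in WT against 0.00910% and 0.00191% in Msx2-KO, 0.122 times the WT mean. For these 3 genes no close copy was found among annotated transcripts, though part of mt-Atp8 lies inside the match to Gm10925. In HFSCs their Msx2-KO libraries lay above the WT libraries.

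The other EpdSC mRNAs without a close copy overlapped between the groups, and for mt-Nd1 and mt-Nd2 the Msx2-KO libraries stood on either side of WT. mt-Nd1 took 0.206% and 0.189% in WT, 1.32% in Msx2-KO replicate 1 and 0.171% in replicate 2. mt-Nd2 took 0.153% and 0.0923% in WT, 0.294% in Msx2-KO replicate 1 and 0.0198% in replicate 2. mt-Cytb took 0.423% and 0.228% in WT, compared with 0.253% and 0.112% in Msx2-KO. mt-Nd4, with a copy of part of its length, took 0.0982% and 0.184% in WT against 1.10% and 0.203% in Msx2-KO, so that replicate 2 exceeded the higher WT library only slightly. mt-Co1 took 0.921% and 0.659% in WT, compared with 0.908% and 1.03% in Msx2-KO.

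Msx2-KO replicate 1 stood at the ends of the range in both directions, with the highest share of mt-Nd1, mt-Nd2, mt-Nd4, mt-Atp6 and mt-Co3 and the lowest share of mt-Rnr1, mt-Rnr2, mt-Co2 and mt-Nd4l among the 4 EpdSC libraries. mt-Nd1 per length was 2.85 and 1.38 times mt-Nd5 in WT, 118 times in Msx2-KO replicate 1 and 15.6 times in replicate 2. By comparison mt-Nd6 per length was 0.618 and 0.520 times mt-Nd5 in WT EpdSCs against 0.624 and 0.423 times in Msx2-KO EpdSCs. In HFSCs the mt-Nd6 ratio was 1.07 and 0.999 in WT against 0.594 and 0.622 in Msx2-KO.

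For 5 of the 7 EpdSC genes with a close copy, the division of the pair ran opposite to that in HFSCs. Gm10925 held 82.4% and 74.6% of the pair with mt-Atp6 in WT, compared with 11.04% and 12.5% in Msx2-KO. Gm28661 held 89.4% and 81.8% of the pair with mt-Co2 against 49.6% and 35.3%, and Gm28437 held 88.0% and 76.7% of the pair with mt-Co3 against 48.2% and 28.4%. Gm10222 held 77.6% and 75.1% of the pair with mt-Nd4l against 53.3% and 46.0%, and Gm28438 held 14.3% and 10.5% of the pair with mt-Nd3 against 23.0% and 29.5%. In these 5 pairs the groups did not overlap, in EpdSCs as in HFSCs. The groups overlapped in EpdSCs for the pairs of partial copies, in which Gm29216 held 4.24% and 2.04% of its pair with mt-Co1 in WT, compared with 19.5% and 3.06% in Msx2-KO, and Gm28439 held 3.01% and 1.49% of its pair with mt-Nd4, compared with 0.915% and 1.91%.

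Adding the copies altered which EpdSC genes separated. mt-Atp6 alone took 0.145% and 0.148% in WT against 0.708% and 0.186% in Msx2-KO, and with Gm10925 it took 0.827% and 0.584% in WT, compared with 0.796% and 0.212% in Msx2-KO, so the groups then overlapped. mt-Co3 alone took 0.0336% and 0.0400% against 0.420% and 0.259%, and with Gm28437 it took 0.281% and 0.171% against 0.812% and 0.362%, still above WT in both libraries. mt-Co1, whose groups overlapped alone, separated with Gm29216, at 0.961% and 0.673% in WT, compared with 1.13% and 1.06% in Msx2-KO. mt-Co2 with Gm28661 took 0.308% and 0.171% against 0.0194% and 0.0407%. mt-Nd4l with Gm10222 took 0.0265% and 0.0445% against 0.000449% and 0.00160%, 0.0288 times the WT mean. The mRNA share with copies was 3.52% and 2.698% in WT against 5.79% and 2.22% in Msx2-KO, which overlapped as before.

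**Figure D2:**
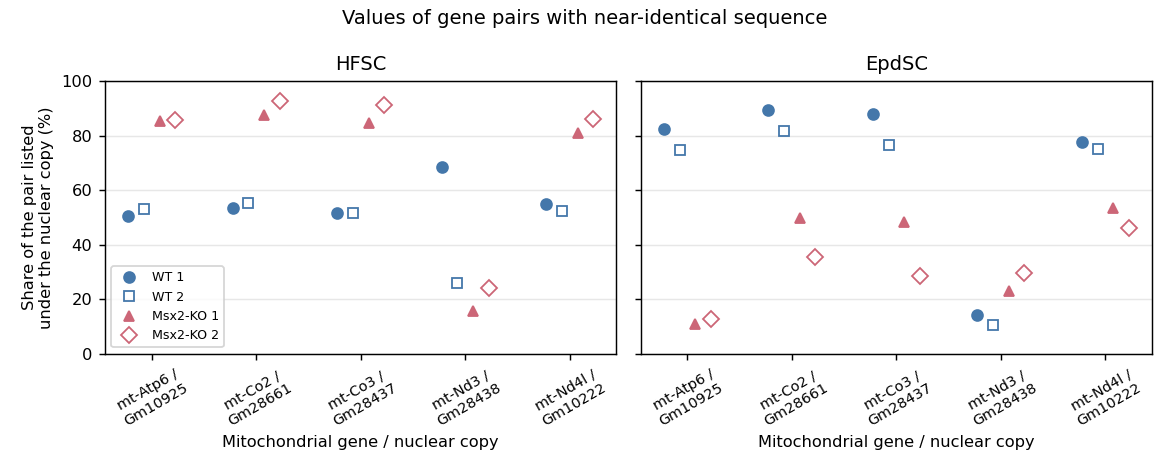
Share of each pair's summed value (%, linear axis) listed under the nuclear copy, for 5 mitochondrial genes and their near-identical copies in HFSCs (left) and EpdSCs (right); each point is 1 library, WT in blue (circle and square) and Msx2-KO in red (triangle and diamond). For mt-Atp6 the Msx2-KO points lie at 85.4% and 85.6% in HFSCs and at 11.04% and 12.5% in EpdSCs, above and below the WT points respectively.

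The composition within the mRNA class does not depend on how a library was scaled, but it does depend on whether the copies are counted. In HFSCs the 7 close copies together held 28.6% and 35.8% of the summed pairs in WT against 49.3% and 51.1% in Msx2-KO. The same part was 50.4% and 40.9% in WT EpdSCs, compared with 18.7% and 9.68% in Msx2-KO EpdSCs. A composition with copies was not computed, so the shifts below hold only without them. Per length and without copies, mt-Co1 made up 15.4% and 12.2% of the length-scaled mRNA in WT HFSCs against 22.7% and 20.1% in Msx2-KO. mt-Cytb made up 12.0% and 7.92% in WT, compared with 12.7% and 13.9% in Msx2-KO. The scarcest mRNAs on this scale were mt-Nd3, from 0.604% to 1.68%, and, in Msx2-KO, mt-Co3 at 1.18% and 0.682%. The length-scaled shares of mt-Co2 (4.84% and 5.61% against 1.95% and 1.28%) and mt-Co3 (3.18% and 3.21% against 1.18% and 0.682%) were the furthest apart in HFSCs by the ratio of group means, and both have a complete copy.

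In EpdSCs the composition spread over a wider range. mt-Atp8 made up 13.3% and 8.35% of the length-scaled mRNA in WT against 0.896% and 0.523% in Msx2-KO. mt-Nd4l made up 0.923% and 2.04% in WT, compared with 0.0142% and 0.162% in Msx2-KO. mt-Co3 lay the other way, at 1.98% and 2.78% in WT against 10.8% and 18.4% in Msx2-KO. As unscaled counts, the complex I genes together made up 42.1% and 41.7% of the mRNA in WT HFSCs against 44.1% and 46.8% in Msx2-KO HFSCs. The same complex I sum was 28.3% and 41.3% in WT EpdSCs, 54.4% in Msx2-KO replicate 1 and 20.8% in replicate 2.

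**Figure D3:**
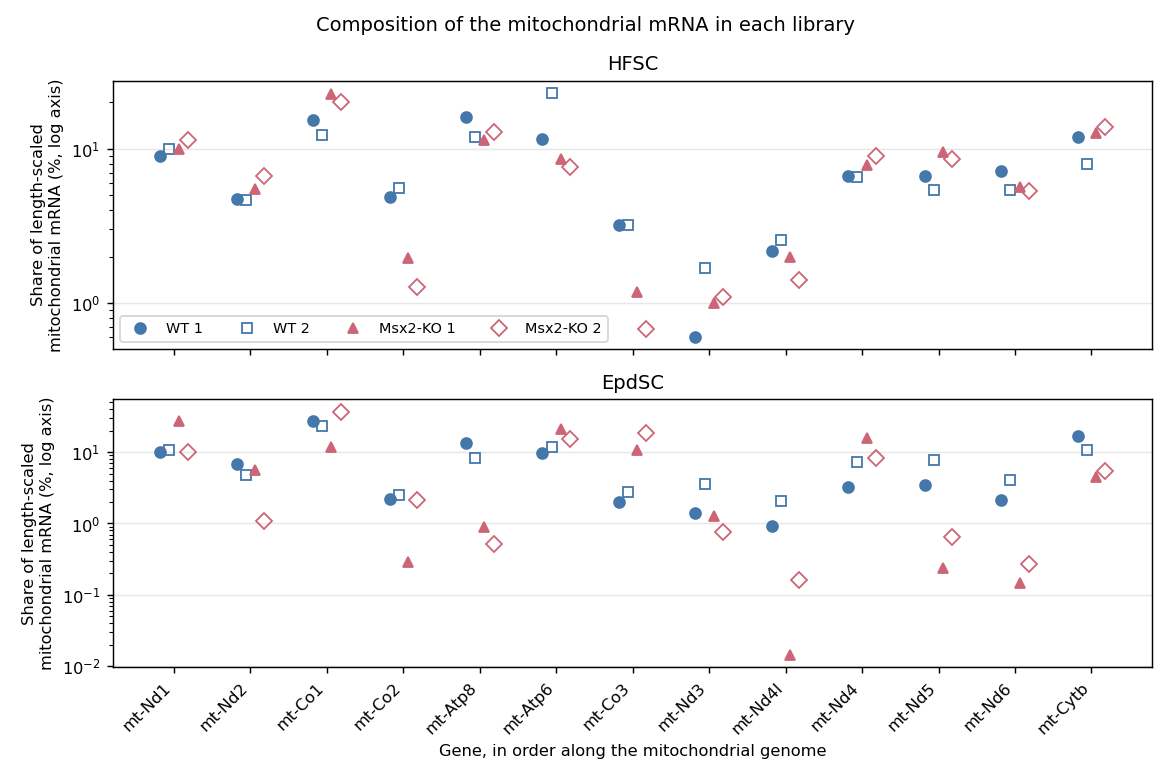
Share of the length-scaled mitochondrial mRNA (%, log axis), counted without nuclear copies, in HFSCs (top) and EpdSCs (bottom). The 13 mRNAs stand in their order along the mitochondrial genome. Each point is 1 library, WT in blue and Msx2-KO in red. In HFSCs mt-Co2 and mt-Co3 show the widest gap between groups, and in EpdSCs the Msx2-KO points of mt-Atp8, mt-Nd4l, mt-Nd5 and mt-Nd6 lie below 1% while the WT points of mt-Atp8 reach 13.3%.

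The fit of edgeR across all HFSC genes called 0 mitochondrial genes of the 15 that passed its filter on low counts, where a call needed a fold change over 2 and an adjusted p (Benjamini-Hochberg) under 0.05. It called 0 of 14422 genes in all (0%), while 18.1% of them, and 0 of the 15, had an unadjusted p under 0.05. DESeq2 called 674 genes, 6 of them mitochondrial (mt-Nd2, mt-Co1, mt-Nd4, mt-Nd5, mt-Cytb and mt-Rnr1). In edgeR the median log2 fold change of the 13 mRNAs was 1.71, against -0.14 for all genes tested, with 11 positive values and 2 negative. With each library left out in turn this median ranged from 1.01 to 3.48. With the copies added all 13 were positive, with a median of 2.14. Without the copies mt-Co1 had the largest value, 2.46 (SE 1.16, adjusted p 0.406 in edgeR), followed by mt-Nd5 at 2.40 (SE 0.996) and mt-Cytb at 2.38 (SE 0.939). The negative values were -0.10 for mt-Co2 and -0.13 for mt-Co3, and they became 2.21 and 1.95 with their copies. mt-Rnr1 had 2.06 (SE 2.60) and mt-Rnr2 1.54 (SE 3.51). The SE given for edgeR is calculated back from its F statistic and depends on the settings. Without the filter on low counts it was 0.829 for mt-Rnr1 and 0.960 for mt-Rnr2.

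The fit of limma to the EpdSC values, on the log2(value + 1) scale, called 1 mitochondrial gene of 15 in Msx2-KO, mt-Rnr1, where 9.35% of the 16231 genes tested were called. By direction, 1.57% of all genes were called higher and 7.78% lower. mt-Rnr1 had normalized values of 1536390 and 957311 in WT, compared with 1007 and 2913 in Msx2-KO, and it fell by 9.47 on the log2 scale (SE 0.761, adjusted p 0.0266 in limma). That call was lost when edgeR was run on the recovered counts, where 0 of the 15258 genes tested passed (5180 had an unadjusted p under 0.05), and when either WT library was left out. Without Msx2-KO replicate 1 limma called 6 of the 15 mitochondrial genes and 6099 of all 16231 genes, and without replicate 2 it called 9 and 10376, so that the mitochondrial counts lay near the share over all genes. mt-Nd4l had -3.97 (SE 0.693, adjusted p 0.0530 in limma), mt-Nd6 -3.04 (SE 0.702, adjusted p 0.0780) and mt-Nd5 -2.91 (SE 0.611, adjusted p 0.0681). mt-Co3 had 3.44 (SE 0.710, adjusted p 0.0664), and mt-Rnr2, with its spread between the Msx2-KO libraries, had -3.91 (SE 2.13). The median over the 13 mRNAs was -0.37, against -0.64 for all genes, with 5 positive and 8 negative values.

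**Figure D4:**
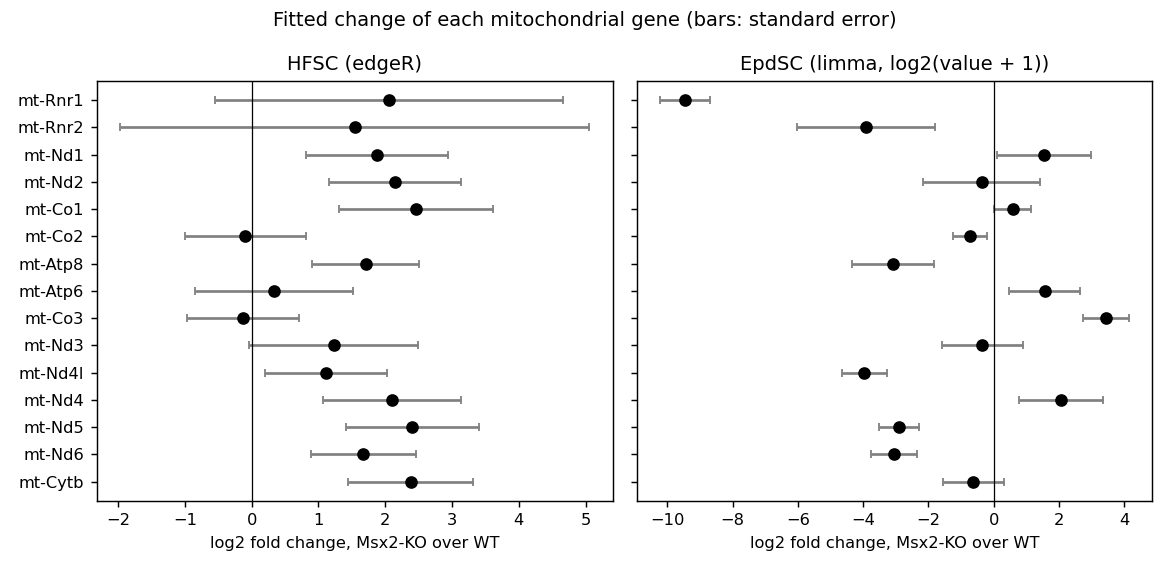
Fitted log2 fold change, Msx2-KO over WT, of the 2 rRNAs and 13 mRNAs in HFSCs (left, edgeR) and EpdSCs (right, limma on log2(value + 1)). Bars show 1 standard error on each side of a point, calculated back from the F statistic in edgeR. The horizontal axes differ. In HFSCs 13 of the 15 points are above 0, whereas in EpdSCs they run from -9.47 for mt-Rnr1 to 3.44 for mt-Co3.

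The only tRNA in the tables was mt-Tg (chrM:9391-9458), the glycine tRNA gene between mt-Co3 and mt-Nd3. Its whole sequence, shown because it is the single tRNA member, was as follows.
mt-Tg: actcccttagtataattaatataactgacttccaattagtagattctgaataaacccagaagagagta
Of the HFSC libraries only WT replicate 2 had counts, 38 of them, and the other 3 had 0. A count of 0 allows up to 3 counts, a share of 6.94e-05% for the first WT library and of 2.72e-05% and 4.35e-05% for the Msx2-KO libraries. The WT libraries thus differed from each other as much as from the Msx2-KO libraries, and no genotype difference in this tRNA was detectable at this depth.

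The nuclear genes that copy, process and maintain the mitochondrial genome, a list of 53 written from general knowledge, gave 1 call over both cell types. In HFSCs 50 of them were tested and edgeR called 0 of either direction, with a median log2 fold change of -0.22 against -0.14 for all genes. At an unadjusted p under 0.05 stood 3 higher and 2 lower genes, where 5.3% of all genes were higher and 12.8% lower at that level. Fastk, which encodes a kinase of a family that acts on mitochondrial RNA, had 99.1 and 49.9 counts in WT against 594 and 194 in Msx2-KO (log2 fold change 1.85, SE 0.422). Rexo2, which degrades very short RNAs in mitochondria, had 73 and 36 counts in WT, compared with 294 and 168 in Msx2-KO (1.66, SE 0.457). The transcription factor genes Nrf1 (log2 fold change -0.73, SE 0.454) and Gabpa (-0.51, SE 0.328), whose products drive nuclear genes of the respiratory chain, and Angel2 (-0.50, SE 0.408) had the lowest values that the rule for named genes allowed.

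In EpdSCs limma tested 52 genes of the list and called 1, Mettl15, higher in Msx2-KO, where 1.57% of all genes were called higher. Like the other limma calls it was lost with edgeR on recovered counts and without either WT library, settings in which 0 genes were called. Mettl15 encodes a methyltransferase of the 12S rRNA, and a link to the lower share of that RNA in these libraries was not tested. Mettl15 had normalized values of 35.7 and 54.1 in WT against 1084 and 562 in Msx2-KO (log2 fold change 4.12, SE 0.610, adjusted p 0.0406 in limma). The list had a median of 0.00 on the log2 scale, against -0.64 for all genes, with 26 positive and 26 negative values. At an unadjusted p under 0.05 limma had 12 of its genes higher and 7 lower, where 35.3% of all EpdSC genes stood at that level, 12.2% higher and 23.1% lower.

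The proteins of the mitochondrial ribosome bind the 12S and 16S RNAs and are all encoded in the nucleus. Of 78 of their genes by symbol, 76 were tested in HFSCs and edgeR called 0, with 5 higher and 7 lower at an unadjusted p under 0.05 and a median log2 fold change of 0.65, where 5.3% of all genes were higher and 12.8% lower at that level and the median of all genes was -0.14. Mrpl12, a protein of the large subunit, had 49 and 11 counts in WT, compared with 582 and 128 in Msx2-KO (3.14, SE 0.702). Mrps35 and Mrps15, of the small subunit, had 2.34 (SE 0.646) and 2.01 (SE 0.520), and Mrps10 had -0.30 (SE 0.613). In EpdSCs all 78 were tested, and limma called 3 higher and 1 lower, with a median log2 fold change of -0.89, where 1.57% of all genes were called higher and 7.78% lower and the median of all genes was -0.64. These calls, too, were lost with edgeR on recovered counts and without either WT library. Mrps23, a protein of the small subunit, had normalized values of 211 and 145 in WT against 8184 and 5068 in Msx2-KO (log2 fold change 5.19, SE 0.557). Mrpl3 (3.80, SE 0.480) and Mrpl44 (2.88, SE 0.479), of the large subunit, were also called higher. Mrpl18, whose product binds 5S rRNA, was called lower, with 421 and 387 in WT, compared with 57.3 and 37.7 in Msx2-KO (log2 fold change -3.09, SE 0.507).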

How the data were processed

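Bulk RNA-seq libraries of HFSCs and EpdSCs, 2 per genotype, were grouped by the sample labels. Libraries came from a strand-marking total RNA kit (SMARTer), and the authors aligned reads to GRCm38/mm10 with STAR (2.7.3a per the submitters' processing notes) in Partek Flow and counted GENCODE genes. For HFSCs the authors deposited estimated counts, which split reads among matching genes and rounded the largest values to 3 digits. For EpdSCs the authors deposited a normalized signal, in which each library's estimated counts had been divided by a factor of its own; how low genes were filtered out is not given in the sources used here. On that scale 1 count stood for 1.08 and 0.949 (WT), 1.27 and 0.674 (Msx2-KO), and 42.9% to 64.0% of nonzero values under 1000 counts were then whole within 0.01. Columns with no assigned sample numbered 0.

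Shares were summed values over the library total. HFSC counts were rounded, scaled by TMM, filtered with filterByExpr and tested with edgeR 4.0.16 (quasi-likelihood). For EpdSCs, limma 3.58.1 was fitted to log2(value + 1). Both fits covered the whole table, with Benjamini-Hochberg adjustment, and genes were called at an adjusted p under 0.05 and a fold change over 2. Both were also run on simulated data. The simulated spread between libraries (dispersion) was below the common dispersion of the HFSC libraries, 0.823. That run therefore does not show how the fits behave at the spread of these libraries. R 4.3.3, Python 3.11.15, DESeq2 1.42.0, matplotlib 3.10.9 and BLAST 2.17.0 were used. Nuclear copies were found by BLAST among GENCODE M21 transcripts, at least 200 bases long and 90% identical, and counted as close from 99%; sequences come from the same transcripts. Named genes were all mitochondrial mRNAs and rRNAs and, of the nuclear lists, the called genes with the largest 5 changes or, with none called, the 3 largest rises and falls among genes with a mean of at least 100 and non-overlapping groups. The tRNA mt-Tg, below that mean, and the untranslated RNAs were named after their values were seen. Members and lists were chosen with earlier results of these data known. Replicate numbers did not pair the libraries.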

Additional observations from a re-analysis of the deposited data

Results flagged for a closer look

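For the measures below every Msx2-KO library lay on one side of both WT libraries in HFSCs and on the other side in EpdSCs. They came from a screen of the mRNA and rRNA classes, their 13 and 2 genes, and the 7 pairs with a close copy. By share of library, 5.98% of all genes tested lay above and 49.8% below in HFSCs, against 24.7% and 46.2% in EpdSCs. How many of all genes lay in opposite directions was not counted. The rRNA share is the sum of its 2 genes, and the group was chosen by it. The difference between the cell types was not tested, because the tables were normalized separately, and age differed with genotype only in HFSCs. The Msx2-KO HFSC and WT EpdSC libraries also stood in the same run of sample numbers, from which these opposite directions cannot be told apart. The mitochondrial rRNA share was 28.7 percentage points higher in Msx2-KO than in WT in HFSCs, and the same difference was -16.8 points in EpdSCs. As a ratio of mean library shares, Msx2-KO over WT, mt-Rnr1 stood at 2.82 in HFSCs and 0.00155 in EpdSCs, and mt-Rnr2 at 2.04 and 0.260. Of the mRNAs, mt-Nd5 stood at 3.50 in HFSCs and 0.105 in EpdSCs, mt-Nd6 at 2.09 and 0.0999, and mt-Atp8 at 2.12 and 0.122.

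The share of a pair listed under the nuclear copy separated the groups in opposite directions in 5 of the 7 pairs with a close copy. The difference, Msx2-KO minus WT, was 33.6 percentage points in HFSCs and -66.7 in EpdSCs for Gm10925 with mt-Atp6. It was 35.8 and -43.1 points for Gm28661 with mt-Co2, and 36.3 and -44.0 points for Gm28437 with mt-Co3. For Gm10222 with mt-Nd4l it was 30.1 and -26.7 points, and for Gm28438 with mt-Nd3 it was -27.5 and 13.9 points.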

How the results depend on the processing

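Depth limited mt-Tg, with 0 to 38 counts; for the other members the spread between 2 libraries per group was the larger error. In HFSCs the count of genes called, 0 in edgeR, was 674 with DESeq2, 51 with library totals, 2 with at least 10 counts in every library and 132 to 9272 with each library left out, where the lone library of a group is assumed to vary like the other group. Mitochondrial genes called in HFSCs were 6 of 15 with DESeq2, which called 674 of all 14422 genes. With a library left out the mRNA median ranged from 1.01, without WT replicate 1, to 3.48, without WT replicate 2. The mitochondrial genes called in HFSCs also changed without WT replicate 2, a fit with a lone WT library. In EpdSCs the genes called, 1518 in limma, ranged from 0 to 10376 with a library left out and were 0 with edgeR on recovered counts, an alternative chosen after seeing the data, as was adding the copies. Mitochondrial genes called there were 4 with a pseudocount of 10, 3 with scaling by genes outside the mitochondrial genome, 2 with copies added, 0 with edgeR and 0 to 9 with a library left out, and the mRNA median ranged from -1.61 to 0.89. Signs turned in HFSCs for mt-Atp6 with library totals (-0.17), for mt-Co2 (2.21) and mt-Co3 (1.95) with copies added, and with a library left out for mt-Atp6 (-0.56 to 2.79), mt-Co2 (-0.90 to 1.66) and mt-Co3 (-0.91 to 1.45). Signs turned in EpdSCs for mt-Nd2 (0.83) and mt-Nd3 (0.16) with edgeR, for mt-Atp6 with copies added (-0.49), and with a library left out for mt-Nd1 (-0.33 to 3.40), mt-Nd2 (-2.71 to 1.97), mt-Nd3 (-1.87 to 1.18) and mt-Cytb (-1.61 to 0.37). The median of all genes was -1.002 in HFSCs and -0.88 in EpdSCs with library totals, against -0.14 and -0.64. The HFSC difference in mRNA share, 4.94 points, was 12.1 outside the rRNA, 8.07 with copies added and 3.44 to 6.45 with a library left out, and that in rRNA was 15.0 to 42.4; in EpdSCs these ranges were -0.0586 to 2.97 and -20.3 to -13.2. The mt-Tg difference was -0.00121 to 0. The cause of these shifts was not tested. DESeq2 was not run on the normalized EpdSC values.

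With the replicate number as a block, 231 HFSC genes and 0 of 15 mitochondrial genes were called, mt-Co2 and mt-Co3 stood at 0.43 and 0.32, and 1271 EpdSC genes and 1 mitochondrial gene were called; the same-number correlations were -0.026 and -0.020, so the libraries share only a number.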
